A study of Rattus norvegicus with 6 samples.

Results

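Axon guidance genes of the netrin, semaphorin and Eph families were examined in spinal cultures grown on carbon nanotubes. The 10 genes were taken by name: Ntn1, Dcc, Unc5a, Unc5b, Sema3a, Nrp1, Nrp2, Epha4, Epha5 and Efnb1. All 10 have at least 1 probe set that the array's annotation pairs with that gene alone, 19 probe sets in total, and they stand among 14217 genes measured in the same way. CNT cultures were spinal cells of newborn rats (postnatal days 1 to 4) plated on glass coverslips covered with multiwalled carbon nanotubes, and control cultures were the same kind of cells on polyornithine-coated glass. There were 3 cultures of each, with 1 Affymetrix array per culture. Both kinds of culture received nerve growth factor and horse serum and were taken after 8 days in vitro according to the methods. The sample labels give the strain as Sprague-Dawley, whereas the methods name Wistar rats. The labels call the samples biological replicates. They do not say whether same-numbered CNT and control cultures came from the same animals, and the methods speak of 3 culture series.

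Netrins, class 3 semaphorins and ephrins are extracellular cues that steer growing axons and migrating cells. Netrin 1 attracts axons through Dcc and repels them through Unc5 receptors, and it draws commissural axons to the ventral midline of the developing spinal cord. In the adult rat spinal cord it is known from neurons and oligodendrocytes. Semaphorin 3A acts through neuropilin 1 together with plexins and mostly repels. Eph receptors are tyrosine kinases that bind ephrins on neighbouring cells and signal in both directions, and Epha4 keeps corticospinal and spinal interneuron axons from crossing the midline in mice.

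None of the 10 genes passed the test between CNT and control cultures. The mean of 7 genes was lower in CNT cultures and that of 3 was higher. The median log2 fold change (CNT minus control) was -0.09 for the 10 genes, beside 0.03 for all 14217 genes, of which 41.5% had a lower mean in CNT cultures. The median size of the difference, regardless of sign, was 0.104 for the 10 genes and 0.101 for all genes. None of the 10 passed an adjusted p of 0.05 in limma (0.0% of all genes did), and each had an adjusted p of 0.999. None had an unadjusted p under 0.05 either, where 3.12% of all genes did. In none of the 10 did the CNT and control arrays lie apart without overlap, as they did in 7.99% of all genes. The exact two-sided permutation p of the single genes ran from 0.2 to 1.0, in a design of 3 against 3 that cannot go below 0.1. The plot of the 10 genes by array shows how the groups overlap.

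**Figure D1:**
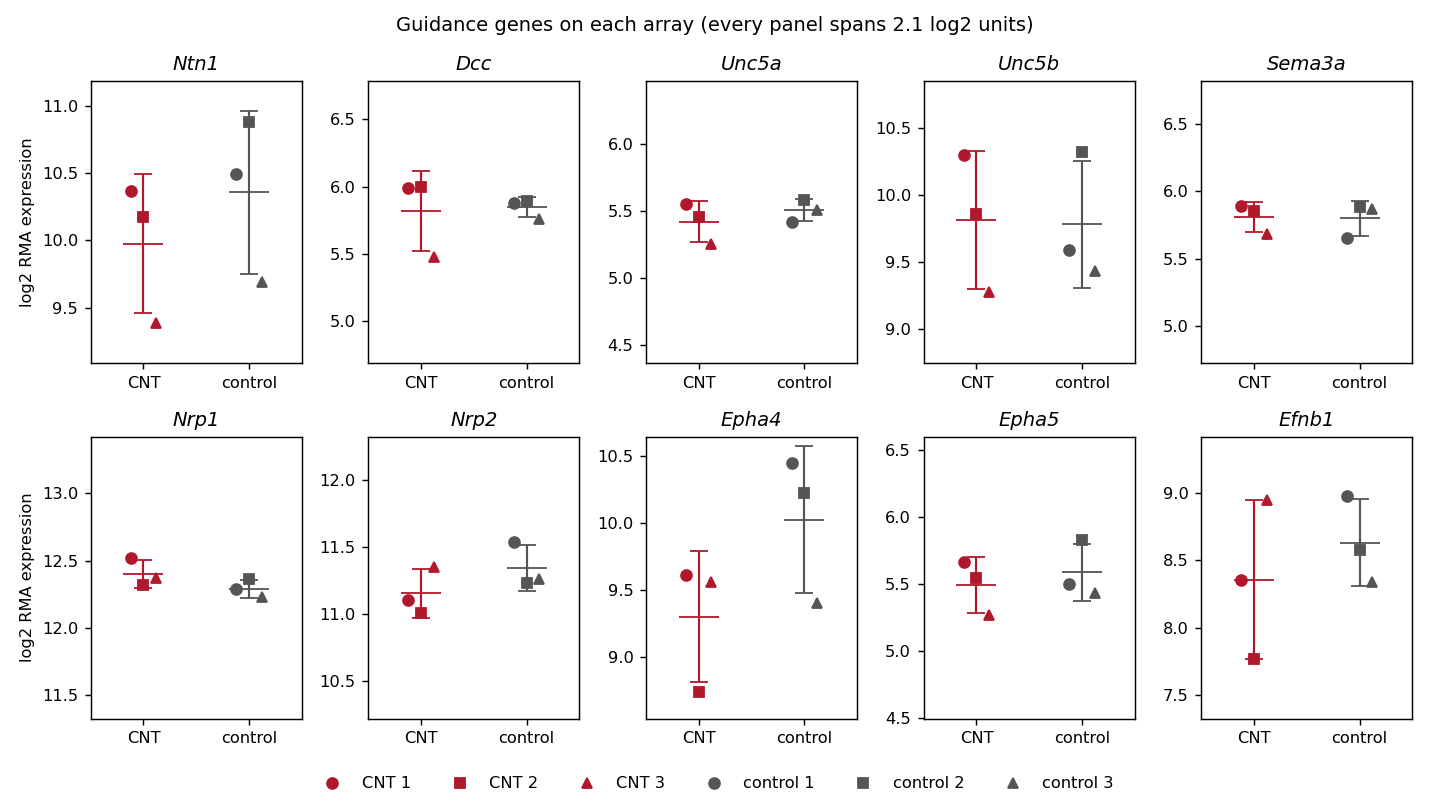
Log2 RMA expression of the probe set with the highest mean of each gene, on each array, with CNT cultures in red and control cultures in grey. Each group's mean is a dash with its SD as a bar (n = 3), symbols give the culture number, and the 2 groups overlap in all 10 panels.

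The probe sets of Dcc, Unc5a, Sema3a and Epha5 belonged to the dimmest 30% of genes, that is, their mean over the 6 arrays was below a log2 expression of 8.06. Detection calls were not used here, so whether these probe sets stood above background cannot be said. Their log2 fold changes lay between -0.10 and 0.01, and the difference between their highest and lowest array was 0.244 to 0.564. The other 6 genes, Ntn1, Unc5b, Nrp1, Nrp2, Epha4 and Efnb1, ranged over 0.295 to 1.71 log2 between arrays.

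The largest difference among the 10 genes was that of Epha4. Its probe set with the highest mean gave a log2 expression of 9.61, 8.74 and 9.56 in CNT cultures 1, 2 and 3, against 10.45, 10.22 and 9.41 in control cultures 1, 2 and 3. Thus control 3 lay below CNT 1 and CNT 3, and CNT 2 was the lowest array. The means were 9.30 ± 0.49 in CNT and 10.02 ± 0.55 in control cultures (SD, n = 3 each). This is a fold of 0.606, with a log2 fold change of -0.72, a standard error of 0.35, and a 95% interval from -1.58 to 0.13. The interval spans no difference as well as a level lower by more than 2-fold.

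Epha4 is measured by 3 further probe sets, and those with a higher signal resembled the first. The second in brightness gave 9.46, 9.05 and 9.60 in CNT cultures and 10.65, 9.71 and 9.42 in control cultures (log2 fold change -0.56, standard error 0.34). The third gave 7.09, 6.32 and 6.57 in CNT cultures and 7.16, 7.84 and 6.85 in control cultures (log2 fold change -0.62, standard error 0.31). In each of these 3 probe sets CNT 2 was the lowest array and control 3 the lowest control culture. The fourth stayed between 4.71 and 5.14 on all arrays and differed by 0.09 log2 (standard error 0.13). Probe sets of a gene share the same RNA and are not replicates.

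The Epha4 difference depended on single cultures. Without control 3 its log2 fold change was -1.03, with an adjusted p of 0.587 in limma, and CNT and control arrays no longer overlapped, as was so for 20.6% of all genes in that fit. Without CNT 2 it was -0.44. Without control 1 and CNT 2 together it was -0.23. Control 1 and CNT 2 had the largest 3' to 5' difference of the beta-actin control probe sets, a sign of RNA quality, at 2.20 log2 in each, while it was 0.92 and 1.72 in the other CNT cultures and 0.621 and 0.656 in the other control cultures. The part of RNA quality in the result was not tested.

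Epha5, a receptor for A-type ephrins, gave 5.67, 5.55 and 5.27 in CNT cultures and 5.503, 5.83 and 5.43 in control cultures. Its log2 fold change was -0.10 (95% interval from -0.48 to 0.29). Efnb1 encodes ephrin B1, a membrane-bound ligand of EphB receptors. Its log2 expression was 8.36, 7.76 and 8.95 in CNT cultures and 8.98, 8.58 and 8.34 in control cultures, so that CNT 3 was close to the highest control culture and CNT 2 was the lowest array. The log2 fold change was -0.27 (standard error 0.33, 95% interval from -1.07 to 0.52). It was 0.02 without CNT 2 and -0.57 without CNT 3, so 1 culture set its direction. The dimmer Efnb1 probe set stayed between 4.33 and 4.46 and had a log2 fold change of -0.03.

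Netrin 1 and its receptors varied more between cultures than between substrates. Ntn1 gave 10.37, 10.17 and 9.39 in CNT cultures 1, 2 and 3, and 10.49, 10.89 and 9.69 in control cultures 1, 2 and 3. The third culture was the lowest on both substrates, and the 2 groups overlapped. The means were 9.98 ± 0.52 and 10.36 ± 0.61 in CNT and control cultures (SD, n = 3 each), a log2 fold change of -0.38 (standard error 0.38, 95% interval from -1.31 to 0.55). It ranged from -0.72 without control 3 to -0.09 without CNT 3. The 2 dimmer Ntn1 probe sets, with means of 5.66 and 5.16, had log2 fold changes of 0.03 and 0.05. Of the 5 netrins and related ligands measured, 3 had a lower mean in CNT cultures, with a median log2 fold change of -0.03. Ntng1, a membrane-anchored netrin relative, differed by -0.36 log2 (standard error 0.60), and Rgma, a ligand of neogenin, by 0.06 log2 (standard error 0.20).

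Unc5b, a repulsive netrin receptor that is also known from endothelial cells, repeated this order of cultures. It gave 10.30, 9.86 and 9.28 in CNT cultures and 9.59, 10.32 and 9.43 in control cultures. CNT 1 and control 2 were the highest arrays, almost level with each other, and CNT 3 and control 3 the lowest. The means were 9.81 ± 0.51 in CNT and 9.78 ± 0.47 in control cultures, a log2 fold change of 0.03 (standard error 0.33, 95% interval from -0.78 to 0.85). The second Unc5b probe set, with 8.49, 7.27 and 6.98 in CNT cultures and 6.98, 8.29 and 7.03 in control cultures, again had CNT 1 and control 2 as its highest arrays. Its log2 fold change was 0.14 (standard error 0.52). The sign of the Unc5b difference changed with single cultures, from -0.21 without CNT 1 to 0.30 without control 2.

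Dcc, the attractive netrin receptor, gave 5.99, 5.99 and 5.48 in CNT cultures and 5.88, 5.90 and 5.76 in control cultures. CNT 3 was again the lowest array. Its log2 fold change was -0.02 (95% interval from -0.42 to 0.38) and was 0.15 without CNT 3. Unc5a gave 5.55, 5.45 and 5.25 in CNT cultures and 5.42, 5.58 and 5.51 in control cultures, with a log2 fold change of -0.09 (95% interval from -0.37 to 0.19). Both probe sets are among the dim ones.

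Of the netrin receptor genes listed, 6 were measured: Dcc, Unc5a, Unc5b, Unc5c, the Dcc relative Neo1 (neogenin), and Dscam, a further netrin receptor that is named here after its values were seen. All 6 were lowest in CNT 3, and in 5 of them CNT 3 and control 3 were the 2 lowest arrays. Over all 14217 genes, 21.9% were lowest in CNT 3 and 22.5% had these 2 cultures as their lowest arrays. Unc5c, a repulsive netrin receptor, gave 10.05, 10.14 and 9.06 in CNT cultures and 9.998, 10.34 and 9.42 in control cultures. Neo1 gave 11.25, 11.38 and 10.81 in CNT cultures and 11.32, 11.53 and 11.01 in control cultures. This pattern was noticed in the data and is given as a description.

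Oligodendrocyte lineage and astrocyte markers were, as list means, low in the same cultures. As list means, microglia markers were low in CNT 3 but not in control 3, and lowest in control 1. Schwann cell markers were high in CNT 3 and control 3 by the same measure, and neuron markers were low in neither. Taken as deviations from their 6-array means and averaged, the 9 measured oligodendrocyte lineage markers stood at 0.37, 0.25 and -0.50 in CNT cultures 1, 2 and 3, and -0.06, 0.33 and -0.39 in control cultures 1, 2 and 3. In 7 of the 9, CNT 3 and control 3 were the 2 lowest arrays. The 9 measured astrocyte markers gave means of 0.07, 0.12 and -0.38 in CNT cultures and 0.16, 0.20 and -0.17 in control cultures. CNT 3 and control 3 were the 2 lowest arrays in 5 of these 9, whereas Gja1 was at 14.10 in CNT 3, above its 6-array mean of 14.07. The 6 netrin receptors gave 0.25, 0.31 and -0.63 in CNT cultures and 0.03, 0.32 and -0.29 in control cultures. The 12 neuron markers gave -0.02, -0.07 and -0.01 in CNT cultures and -0.08, 0.05 and 0.13 in control cultures, and 5 of the 12 were lowest in CNT 3.  The 10 microglia and macrophage markers gave 0.29, 0.40 and -0.26 in CNT cultures and -0.58, 0.15 and 0.003 in control cultures, and 3 of the 10 were lowest in CNT 3. The mean of the 5 Schwann cell markers was highest in CNT 3 and control 3, with -0.01, -0.32 and 0.56 in CNT cultures and -0.17, -0.27 and 0.22 in control cultures. This did not hold for each marker. Pmp22 was highest in these cultures, whereas S100a4 was at 12.73 in control 3, below its 6-array mean of 12.78. The part of cell composition in these values was not tested. In a culture of several cell types, fewer cells of a type and less RNA per cell cannot be told apart.

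**Figure D2:**
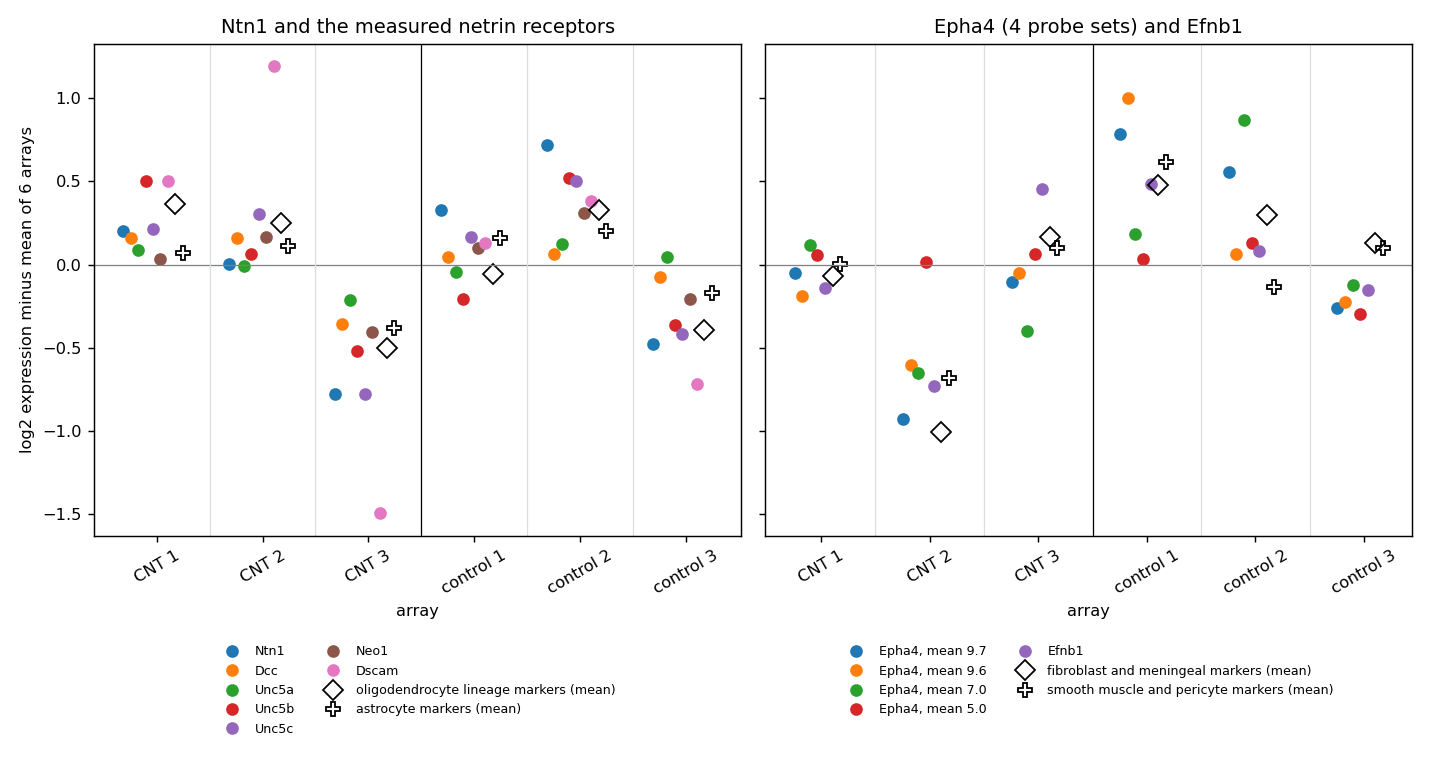
Log2 expression of each gene or probe set on each array minus its mean over the 6 arrays (vertical axis), with filled points for genes and open black symbols for the mean of a marker list. On the left the netrin receptors are lowest in CNT 3, where the oligodendrocyte lineage markers are at -0.50, and on the right 3 of the 4 Epha4 probe sets are lowest in CNT 2.

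The sequences upstream of the netrin receptor genes among the 10, Dcc, Unc5a and Unc5b, are shown because each of these genes was lowest in CNT 3. Ntn1 and Epha5 were lowest in that array too. The sequences are the 250 bases before the annotated gene start in the rat genome build GRCr8, from RefSeq, 5' to 3' on the strand of the gene. Of the 10 genes, 7 were matched in that table. Capitals mark the letters GGGCGG (a GC box, to which Sp1 can bind), read on both strands, so that CCGCCC is marked too. Dcc lies at chr18:68247675-68247924, Unc5a at chr17:9675664-9675913 and Unc5b at chr20:29307271-29307520, all on the minus strand.
Dcc: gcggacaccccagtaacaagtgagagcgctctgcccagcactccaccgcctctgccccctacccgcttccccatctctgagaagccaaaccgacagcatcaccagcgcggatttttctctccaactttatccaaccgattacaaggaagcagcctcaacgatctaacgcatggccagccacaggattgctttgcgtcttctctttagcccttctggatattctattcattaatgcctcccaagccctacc
Unc5a: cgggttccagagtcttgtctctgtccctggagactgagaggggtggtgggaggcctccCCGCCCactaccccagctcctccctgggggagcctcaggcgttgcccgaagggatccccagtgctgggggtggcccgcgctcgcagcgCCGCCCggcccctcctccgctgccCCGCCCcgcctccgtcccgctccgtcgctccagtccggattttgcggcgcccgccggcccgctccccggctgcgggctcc
Unc5b: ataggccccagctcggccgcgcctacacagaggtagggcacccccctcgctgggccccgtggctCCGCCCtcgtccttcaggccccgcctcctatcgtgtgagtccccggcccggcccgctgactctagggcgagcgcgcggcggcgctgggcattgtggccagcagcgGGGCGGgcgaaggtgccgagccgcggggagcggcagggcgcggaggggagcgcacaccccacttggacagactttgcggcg
The Unc5a window holds 3 such matches, that of Unc5b 2 and that of Dcc none. Over all 33469 promoters of the table, 30.5% hold at least 1. The windows of Unc5a and Unc5b have 75.6% and 75.2% G and C, against 54.0% for Dcc and a median of 51.2% over all promoters. They hold 25 and 30 CpG dinucleotides, against 11 for Dcc and a median of 5. The Epha5 window, which is not printed, has 47.6% G and C, 8 CpG dinucleotides and no such match. None of the 3 windows holds TATAAA or CCAAT on either strand, which 12.9% and 34.0% of all promoters do, so no 2 of these motifs overlap there. A match of letters is not a binding site.

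Semaphorin 3A and the neuropilins showed small differences. Nrp1, the ligand-binding receptor of semaphorin 3A, gave 12.52, 12.32 and 12.37 in CNT cultures, against 12.29, 12.36 and 12.23 in control cultures. Control 2 lay just above CNT 2, and the other 2 control cultures lay below every CNT culture. The means were 12.40 ± 0.10 in CNT and 12.29 ± 0.07 in control cultures, with a log2 fold change of 0.11 (standard error 0.10, 95% interval from -0.13 to 0.36). The second Nrp1 probe set gave 12.06, 12.07 and 12.42 in CNT cultures and 12.04, 11.60 and 12.25 in control cultures (log2 fold change 0.22, standard error 0.20). Both probe sets of Nrp1 had a positive difference, and neither passed.

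Nrp2, which prefers other class 3 semaphorins such as semaphorin 3F, gave 11.10, 11.01 and 11.35 in CNT cultures and 11.54, 11.23 and 11.26 in control cultures. Here CNT 3 lay above controls 2 and 3. The log2 fold change was -0.19 (standard error 0.14, 95% interval from -0.53 to 0.16), and the dimmer probe set gave 0.05 (standard error 0.10). Sema3a gave 5.89, 5.86 and 5.68 in CNT cultures and 5.65, 5.88 and 5.87 in control cultures. Its log2 fold change was 0.01 (95% interval from -0.27 to 0.29).

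**Figure D3:**
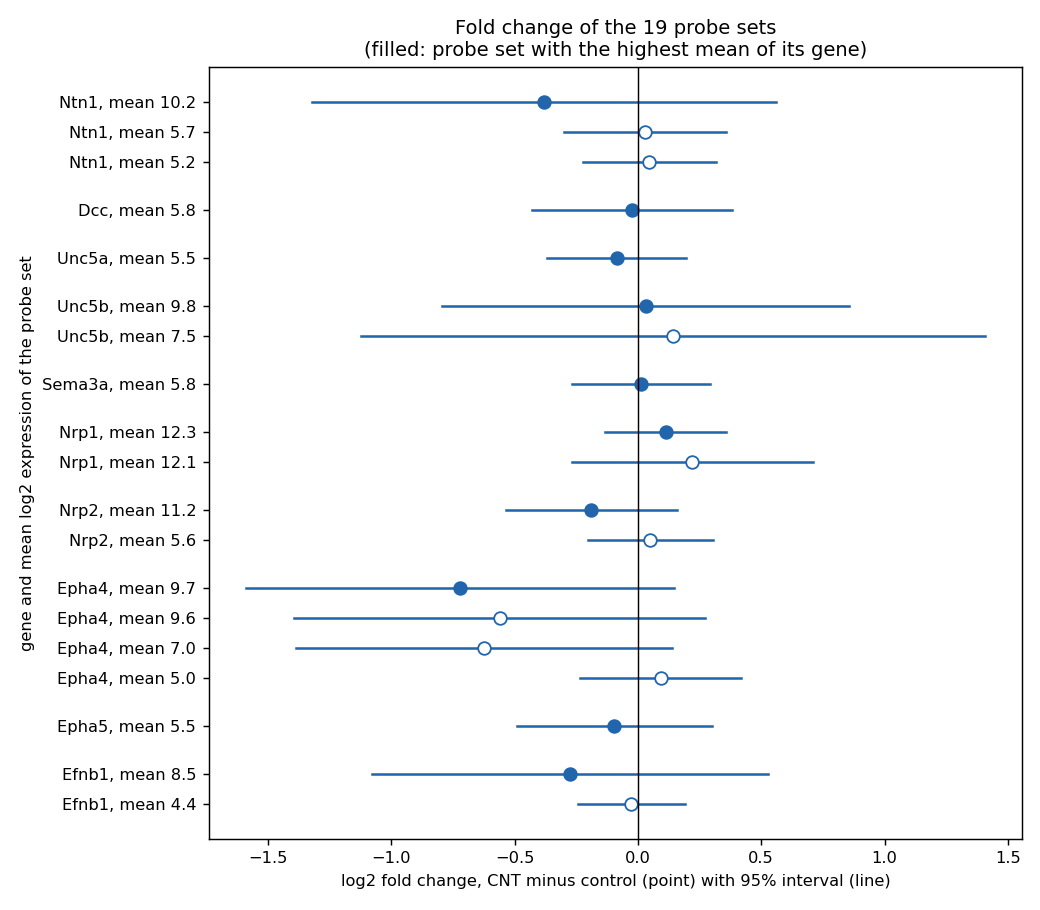
Log2 fold change (CNT minus control) of each of the 19 probe sets, with lines for the 95% intervals of a limma fit over all probe sets, labelled by gene and mean log2 expression. Every interval includes 0, and 3 of the 4 Epha4 probe sets lie between -0.72 and -0.56.

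The wider families gave the same picture. Of 96 genes listed as netrins, semaphorins, plexins, Eph receptors, ephrins, their receptors and effectors, 82 were measured and the other 14 were not analysed here. None passed the test over all genes, and 2 had an unadjusted p under 0.05. The median log2 fold change of the 82 was -0.04, and 61.0% had a lower mean in CNT cultures, beside 41.5% of all genes. With 1 culture, CNT 3, left out, 38 of 82 were lower, beside 39.5% of all genes, and the median was 0.02. With the arrays rescaled by quantiles, cyclic loess or medians, 53, 54 and 46 of the 82 were lower. The shares of all genes were then 44.5%, 47.2% and 37.9%. Under these rescalings no list's median turned its sign, but other alternatives did turn some. The netrin receptor median went from -0.055 to 0.045 with array weights and to 0.162 without CNT 3. That of the ephrins went from -0.113 to 0.022 without CNT 2. Netrin ligands went from -0.028 to 0.035 with averaged probe sets, and semaphorin receptors from 0.025 to -0.079 without CNT 1. CNT and control arrays did not overlap in 3 of the 82, which is 3.66%, beside 7.99% of all genes.

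Among the 12 Eph receptors measured, 9 had a lower mean in CNT cultures, with a median log2 fold change of -0.11. Leaving out 1 array moved this. Without CNT 3, 6 of 12 were lower, with a median of -0.162. The median was -0.231 without CNT 1 and -0.288 without control 3. Epha7, a receptor for A-type ephrins, gave 7.95, 7.01 and 7.99 in CNT cultures and 8.40, 8.36 and 8.01 in control cultures. The 3 CNT arrays lay below the 3 control arrays, as was so in 2.05% of all genes, though CNT 3 and control 3 almost met. The difference was -0.60 log2 (standard error 0.29, adjusted p = 0.999 in limma). Epha10, which lacks kinase activity, had the opposite sign, with 7.40, 7.05 and 7.25 in CNT cultures and 6.66, 6.75 and 7.07 in control cultures (log2 fold change 0.41, standard error 0.15, unadjusted p = 0.0368 and adjusted p = 0.999 in limma). For Ephb1, a receptor for B-type ephrins, the difference was -0.12 log2 (standard error 0.36). Of the 5 ephrins measured, 3 were lowest in CNT 2, among them Efnb1 and Efna5, a ligand of EphA receptors (log2 fold change -0.34, standard error 0.27).

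Markers of connective tissue cells were also lowest in CNT 2. Expressed in the same way, the 10 fibroblast and meningeal markers gave means of -0.07, -1.005 and 0.17 in CNT cultures 1, 2 and 3 and 0.48, 0.30 and 0.13 in control cultures 1, 2 and 3. All 10 were lowest in CNT 2, as were 6 of the 8 smooth muscle and pericyte markers. Over all genes the share lowest in CNT 2 was 14.2%. The mean of all 10 fibroblast markers was lower in CNT cultures, with a median log2 fold change of -0.48, and 7 of the 8 smooth muscle markers were lower, with a median of -0.535. Neither list held a gene that passed the test. Without CNT 2 the fibroblast median was -0.17, and without CNT 3 it was -0.873. That of smooth muscle was 0.06 without control 1 and CNT 2, and -0.793 without control 2. The markers Col3a1 and Fn1 had means of 13.90 ± 0.43 and 13.59 ± 0.26 in CNT cultures, against 14.33 ± 0.14 and 13.86 ± 0.02 in control cultures (SD, n = 3 each). The part of connective tissue cells in the values of Epha4, Epha7 and Efnb1 was not tested.

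The class 3 semaphorins, all 7 of which were measured, had a median log2 fold change of -0.015 and the widest spread. Without CNT 3 this median was -0.448, with 5 of 7 lower, and with array weights it was -0.365. The lowest value, -1.048, was that of Sema3d, named here after its values were seen, with 8.86, 9.68 and 9.98 in CNT cultures and 11.81, 9.84 and 10.01 in control cultures, so that control 1 alone stood far above the rest. The highest, 0.54, was that of Sema3g, a semaphorin of the vasculature that binds Nrp2. Sema3g gave 7.54, 7.98 and 7.97 in CNT cultures and 7.505, 7.02 and 7.37 in control cultures. The 3 CNT arrays lay above the 3 control arrays, as in 5.94% of all genes, with a standard error of 0.18 (unadjusted p = 0.0263 and adjusted p = 0.999 in limma). For Sema3c, which also signals through neuropilins, the difference was -0.36 log2 (standard error 0.19).

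The 10 membrane semaphorins measured had a median of 0.05 and 11 semaphorin receptors one of 0.025, with 6 genes higher in each list. The plexins Plxna2 and Plxnd1 differed by -0.42 log2 (standard error 0.24) and by 0.41 log2 (standard error 0.27). Plxnd1, a receptor of endothelial cells and neurons, was at 8.72 in control 1 and between 9.54 and 9.79 on the other arrays. Of 26 intracellular effectors, 18 had a lower mean in CNT cultures, a count of 11 without CNT 3 and of 13 without control 1 or with array weights. Dpysl5, a collapsin response mediator protein, gave 8.22, 7.81 and 8.21 in CNT cultures and 8.82, 8.48 and 8.25 in control cultures, a log2 fold change of -0.44 (standard error 0.19). Its relative Dpysl2, which carries semaphorin 3A signals to microtubules, differed by -0.04 log2 (standard error 0.13).

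**Figure D4:**
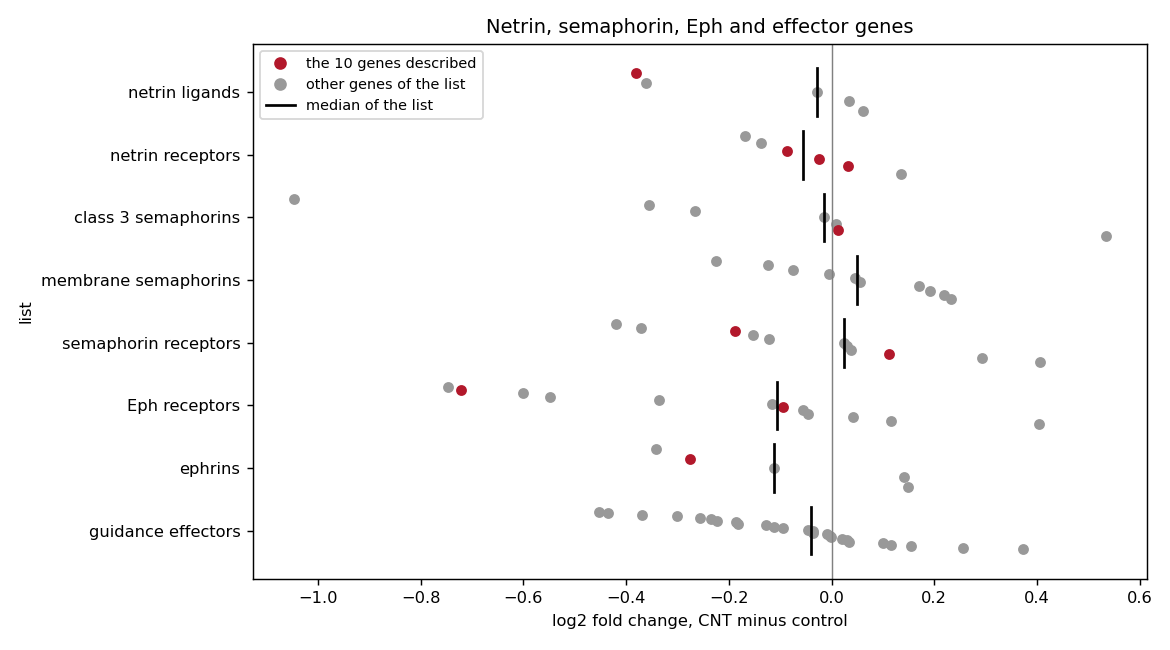
Log2 fold change (CNT minus control) of the 82 measured guidance genes by list, with the 10 genes described in red, other genes in grey and the median of each list as a black line. The medians lie between -0.113 and 0.05, and the class 3 semaphorins have the widest spread.

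Markers of astrocytes, myelin, neurons and macrophages had a high signal in both kinds of culture. Gfap of astrocytes had a log2 expression of 14.14 ± 0.38 in CNT and 14.16 ± 0.26 in control cultures, Mbp of myelin 14.47 ± 0.25 and 14.43 ± 0.11, Map2 of neurons 11.40 ± 0.34 and 11.55 ± 0.08, and Cd68 of macrophages 13.97 ± 0.15 and 13.55 ± 0.47 (SD, n = 3 each). By median log2 fold change, the 12 neuron markers stood at -0.08, the 9 astrocyte markers at -0.12, with all 9 lower (4 of 9 without CNT 3), and the 9 oligodendrocyte lineage markers at 0.04 (0.416 without CNT 3 and -0.126 without CNT 2). The 7 endothelial and 10 microglia and macrophage markers had medians of 0.16 and 0.29 (-0.01 and -0.04 without control 1 and CNT 2), and the 5 Schwann cell markers one of 0.06 (0.384 without CNT 2), with no marker passing the test. No gene of the 14217 passed in limma, while at an unadjusted p under 0.05 there were 342 genes higher and 101 lower.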

How the data were processed

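Total RNA (100 ng) of 3 CNT and 3 control cultures was hybridized after amplification to Affymetrix rat genome arrays, 1 per culture. The deposited values are log2 expression obtained by the authors with RMA (version not given in the sources used here), a method that corrects background, equalizes the distributions of the arrays and summarizes probes. They refer to the manufacturer's probe sets, although the methods name custom EntrezGene files. GEO's platform annotation pairs 20826 of 31099 probe sets with 1 gene. Left out were 436 with several genes, 9780 with none and 57 controls. A gene stood for its brightest probe set by mean over 6 arrays, which gave 14217 genes. With 6 arrays, precision rests on their number.

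Differences (CNT minus control) were tested in limma 3.58.1 (R 4.3.3) by lmFit and eBayes with no block. P-values were adjusted by Benjamini-Hochberg over the 14217 genes and called under 0.05. Further probe sets were read from a fit of all 20826. The rank product named in the methods permutes genes within arrays and was not used here. The fit was tested on simulated data.

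The 10 genes and all lists were chosen with earlier results of these data known. Other genes were named by rule: per guidance list the 2 of smallest unadjusted p and the 1 of highest mean, and per marker list the 2 of highest mean. Some listed marker genes are not reported here. Alternatives were a trended robust fit, weighted arrays, a replicate block, averaged or single probe sets, a filter against the dimmest 30% of genes, 3 rescalings (quantile, cyclic loess, median), and fits without 1 array or without control 1 and CNT 2. The fit without control 3 and CNT 3 was chosen after seeing the data.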

Additional observations from a re-analysis of the deposited data

How the results depend on the processing

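None of the 10 genes passed an adjusted p of 0.05 in limma under any alternative run. An unadjusted p under 0.05 arose in limma only for Epha4 without control 3, and for Epha4 and Efnb1 without control 3 and CNT 3. The number of the 10 whose CNT and control arrays did not overlap was 1 with quantile normalization (7.06% of all genes), with median centring (7.96%) and without control 1 and CNT 2 (21.5%), each time Nrp1. It was 5 without control 3 and CNT 3 (38.2%), and 0 to 2 with 1 array left out (12.3% to 25.1%). Genes called higher over all genes numbered 0 to 2 with 1 array left out (2 without control 3) and 1 without control 3 and CNT 3. Signs of single genes turned as follows. Dcc was 0.078 with array weights and 0.105 without control 3 and CNT 3, where Unc5a was 0.00. Sema3a was -0.025 with quantile normalization and -0.034 with cyclic loess. Without control 1 and CNT 2, Unc5b was -0.085, Sema3a -0.085 and Efnb1 0.195. Further probe sets gave 0.028 and 0.047 for Ntn1, 0.051 for Nrp2 and 0.092 for Epha4. With 1 array left out, log2 fold changes ranged from -0.111 to 0.147 for Dcc, -0.211 to 0.301 for Unc5b, -0.063 to 0.076 for Sema3a, -0.572 to 0.022 for Efnb1 and -0.182 to 0.026 for Epha5. The cause was not tested. Deviations of same-numbered cultures from their group means correlated at -0.13, 0.36 and 0.51 across genes for numbers 1, 2 and 3. For cultures of unlike number the correlations ran from -0.71 (CNT 3 with control 2) to 0.68 (CNT 1 with control 2). These values do not settle whether the cultures were paired. The methods name no block, so the main fit had none. With the replicate block the genes called stayed at 0, and the genes with an unadjusted p under 0.05 were 498 higher and 179 lower. Ntn1 then had a log2 fold change of -0.38 with a standard error of 0.15 (adjusted p = 0.973). The median of the 10 genes was 0.008 without CNT 3 and from -0.173 to -0.023 under the other alternatives that held all 10 genes. Without the dimmest 30% of genes, 6 of the 10 were left, with a median of -0.232. Over the 19 single probe sets the median was -0.024.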
